A study of Mus musculus with 4 samples.

Results

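The genes described here are 44 transcription factors that divide the developing brain into regions along its length and from its dorsal to its ventral side, taken by symbol from 22218 genes listed in spatial transcriptomes of mouse brain organoids. The choice was made by name, without regard to upper or lower case, and holds patterning factors of the forebrain, midbrain, hindbrain and dorsoventral axis outside the Hox clusters. All 44 were read in the ATRA, BMS753 and VitaminA sections, and 43 in the BMS961+BMS641 section, where Nkx6-2 was not listed.

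The organoids were grown for 3 months from mouse embryonic stem cells that carry a CARLIN barcode array and Cas9, a line used to trace cell lineage, seeded at 5000 cells per well. From day 9 the maturation medium held, in addition, ATRA (all-trans retinoic acid, which activates all retinoic acid receptors) at 1 µM, BMS753 (an agonist of the receptor RARα) at 1 µM, BMS961+BMS641 (agonists of RARγ and RARβ) at 0.1 µM, or vitamin A in the B27 supplement, the section called VitaminA here. B27 is recorded at 2% for every section. Whether the B27 of the ligand media also held vitamin A from that day is not clear from the labels. VitaminA is thus a retinoid-precursor arm and not an untreated control, and the ligand sections may have had the precursor too. Each treatment was represented by 1 section, and several organoids were embedded together, so a section can hold tissue of more than 1 organoid. The series' design text names the roles of retinoids in nervous tissue as its question. Monolayer cultures of the same study were not analysed here.

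Regional patterning works through a small set of transcription factors, each switched on in a stripe or patch of the neural tube by signals such as retinoic acid, WNTs, FGFs, BMPs and Sonic hedgehog, and many of them repress each other so that the borders become sharp. In the embryo OTX2 and SIX3 mark the front of the neural plate, PAX2, PAX5, PAX8 and the Engrailed factors the border between midbrain and hindbrain, and EGR2 (Krox20) segments of the hindbrain. PAX3 and PAX7 mark the dorsal side, NKX2-2 the ventral side and the DBX factors a zone between them. Retinoic acid is known as a signal that favours posterior identities in the neural tube.

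The deposited values were a signal for every gene at every spot, a small region of the array that can hold several cells or parts of cells. The sections held 593 spots for ATRA, 469 for BMS753, 365 for BMS961+BMS641 and 552 for VitaminA. In 592, 468, 364 and 551 of these spots, in the same order, the lowest positive value and the zeros formed 1 tie that followed the row order of the file, so the lowest value was set to 0, and a gene was called seen at a spot where its signal lay above it. The median number of genes seen per spot was then 3388 in the ATRA section, 3330 in the BMS753 section, 4462 in the BMS961+BMS641 section and 4659 in the VitaminA section. The level of a gene is its share of a section's signal in ppm, and the log2 ratio of 2 sections was taken after adding 1 ppm to both, for genes at 5 ppm or more in either. The number of reads behind the values is unknown. With 1 section per treatment there is no test of a treatment, and a ratio past 2-fold is a description of these sections. The range over 4 quadrants of a section shows the spread within it, not between organoids, and fewer cells of a type cannot be told apart from less RNA per cell. Intervals given with shares of spots are exact 95% binomial intervals, which cover counting error only, and the widest for a member spanned 10.5 percentage points.

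Tissue markers bear on the label "brain organoid". Of 9 neuron markers all were seen in at least 5% of spots in every section, with summed levels of 928, 1339, 1366 and 987 ppm in the ATRA, BMS753, BMS961+BMS641 and VitaminA sections. Stmn2 alone had 572 ppm in the BMS961+BMS641 section, against 13.7 to 46.8 ppm in the other sections. No other neuron marker of the list was highest in BMS961+BMS641. Neural progenitors are the cells in which most patterning factors act first. Of the 8 markers on their list 6, 5, 6 and 6 were read, and Sox2 and Sox1 had no values in any section. Of those read, 2, 2, 4 and 3 were seen in at least 5% of spots, and the summed levels were 38.2, 74.2, 63.9 and 62.0 ppm. Within that list Msi1 was seen in 26.98% to 51.0% and Prom1 in 34.2% to 46.8% of spots, and Nes and Vim in at most 9.06%. Epithelium markers summed to 1533 ppm in the BMS961+BMS641 section, against 61.1 to 104 ppm in the other 3 sections. Epcam (987 ppm) and Cdh1 (538 ppm) made up nearly all of that sum, while Krt8 had 4.03 ppm in the BMS961+BMS641 section and 45.4 ppm in VitaminA, and Krt18 had 3.85 ppm and 2.92 ppm. All 4 of them were seen in at least 5% of spots in the BMS961+BMS641 and VitaminA sections and 3 in the ATRA and BMS753 sections, and none was at 0. Astroglia markers summed to 87.2, 203, 93.0 and 191 ppm. Mesenchyme markers summed to 62.0, 178, 82.7 and 248 ppm, of which Lum alone was 148 ppm in VitaminA. Pluripotency markers summed to 13.3, 39.7, 16.9 and 162 ppm, of which Sall4 alone was 153 ppm in VitaminA. Oligodendrocyte markers summed to 212, 169, 132 and 259 ppm, microglia markers to 33.2, 57.5, 117 and 38.8 ppm and endothelium markers to 36.6, 99.2, 46.6 and 76.4 ppm. The part of the cells behind these markers in the members' levels was not tested.

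The promoters of 4 members past 2-fold in the comparisons below are shown because the ligands act on receptors that bind DNA. RefSeq windows of 250 bases before to 50 bases after the annotated start (GRCm38.p6) were found for 34 of the 44 members, and Otx1, Rax, Tshz1, Irx1, Irx5, Gbx1, En2, Pax3, Zic2 and Lhx5 had none in that table. Capitals mark the motif AGTTCA, read on either strand.
Pax8: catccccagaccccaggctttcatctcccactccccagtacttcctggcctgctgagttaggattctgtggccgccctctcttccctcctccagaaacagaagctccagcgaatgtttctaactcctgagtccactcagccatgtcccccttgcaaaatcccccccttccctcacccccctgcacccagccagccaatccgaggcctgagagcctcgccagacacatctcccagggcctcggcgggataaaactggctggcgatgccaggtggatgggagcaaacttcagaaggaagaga
Pax7: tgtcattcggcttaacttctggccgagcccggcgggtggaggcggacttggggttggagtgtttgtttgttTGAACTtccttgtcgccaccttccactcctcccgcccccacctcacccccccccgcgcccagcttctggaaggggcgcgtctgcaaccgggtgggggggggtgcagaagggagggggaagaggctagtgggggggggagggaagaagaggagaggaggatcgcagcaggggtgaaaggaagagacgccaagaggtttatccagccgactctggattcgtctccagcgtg
Dbx2: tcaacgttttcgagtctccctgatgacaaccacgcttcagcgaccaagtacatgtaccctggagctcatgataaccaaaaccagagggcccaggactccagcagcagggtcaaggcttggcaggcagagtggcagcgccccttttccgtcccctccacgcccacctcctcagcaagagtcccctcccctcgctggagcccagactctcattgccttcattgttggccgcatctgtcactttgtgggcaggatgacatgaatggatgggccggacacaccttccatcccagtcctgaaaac
Egr2: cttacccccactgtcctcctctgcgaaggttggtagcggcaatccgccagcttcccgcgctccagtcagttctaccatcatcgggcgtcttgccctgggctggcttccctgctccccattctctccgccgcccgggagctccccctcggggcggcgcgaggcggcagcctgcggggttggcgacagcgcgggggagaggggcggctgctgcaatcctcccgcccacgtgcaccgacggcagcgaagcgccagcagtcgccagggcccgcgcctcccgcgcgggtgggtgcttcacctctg
They lie at chr2:24475550-24475849 (minus strand) for Pax8, chr4:139832919-139833218 (minus) for Pax7, chr15:95654722-95655021 (minus) for Dbx2 and chr10:67535249-67535548 (plus, the first of 5 windows) for Egr2, and each spans the start of transcription. Among the hexamers that retinoic acid receptors bind in pairs, AGGTCA (in 16.3% of all 32851 windows) and AGTTCA (in 14% of them) were searched on both strands. Other forms of the hexamer were not searched, so a window without capitals is not shown to lack a site. The 34 members had 47 windows, of which 2 (4.26%) held AGGTCA and 11 (23.4%), of 9 members, held AGTTCA. Windows of a member can overlap, and windows 3 and 4 of Egr2 do so almost wholly, so the 11 are not separate sites. Over the first window of each of the 34 members, 2 held AGGTCA and 7 held AGTTCA. The printed window of Pax7 held one of them, the TGAACT in capitals, and Egr2 had AGTTCA in its windows 2, 3 and 4, which are not printed. Direct repeats of AGGTCA with 5 or with 2 bases between the copies were in none of the members' windows and in 0.00913% of all windows each. The members' windows were richer in CpG than all windows, with medians over each member's first window of 19.5 against 7 CpG per window and 61.7% against 52.7% GC.

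The median member was near the median gene in its share of spots. It was seen in 8.26% of spots of the ATRA section, 8.21% of the BMS753 section, 11.8% of the BMS961+BMS641 section and 13.7% of the VitaminA section, and the median over all listed genes was 8.26%, 9.38%, 12.3% and 11.6%. At least 5% of spots were reached by 29, 28, 31 and 39 members, beside 61.2%, 64.7%, 68.6% and 70.2% of all genes. Only 5 members, Tshz2, Tcf7l2, Pax2, Pax5 and Pax7, were seen in at least 50% of spots of every section, while 32 stayed under 50% and 5 under 5% in all of them. Of the 19783 genes read in all sections, 6.69% met the first of these criteria, 77.4% the second and 17.0% the third. VitaminA was the section with the highest share of spots for 28 of the 44 members, beside 42.2% of those genes.

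**Figure D1:**
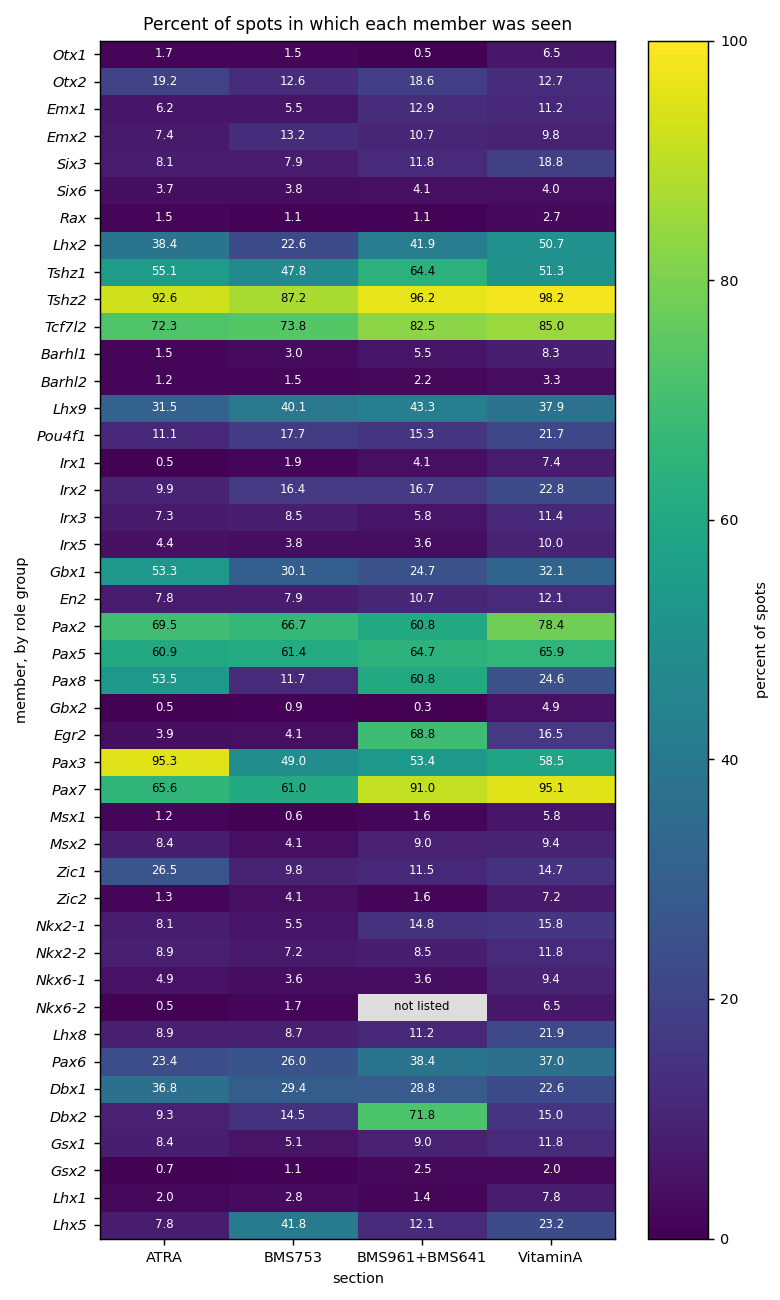
Share of spots at which each of the 44 members was seen (percent), with members as rows by role and sections as columns, ATRA leftmost and VitaminA rightmost. Tshz2 is above 87% in every section, Egr2 and Dbx2 stand out in the BMS961+BMS641 section at 68.8% and 71.8%, and Gbx2 stays under 5% throughout.

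Members with long genes were seen at more spots than members with short ones. Across the members, which are not independent, the Spearman correlation between genomic span (GRCm38.p6) and share of spots was 0.79 in the ATRA section, 0.77 in BMS753, 0.80 in BMS961+BMS641 and 0.81 in VitaminA (n = 44, 44, 43 and 44), and over all genes it was 0.80, 0.84, 0.80 and 0.83. Tshz2 spans 440.2 kb, Tcf7l2 191.9 kb and Pax5 185.9 kb, whereas Gsx1 spans 2.25 kb and Gbx2 3.21 kb. Egr2, at 7.72 kb, and Lhx5, at 9.57 kb, were seen in 68.8% and 41.8% of spots in 1 section each and in at most 16.5% and 23.2% in the other sections. Levels are therefore compared below within a gene and between sections, not between genes.

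**Figure D2:**
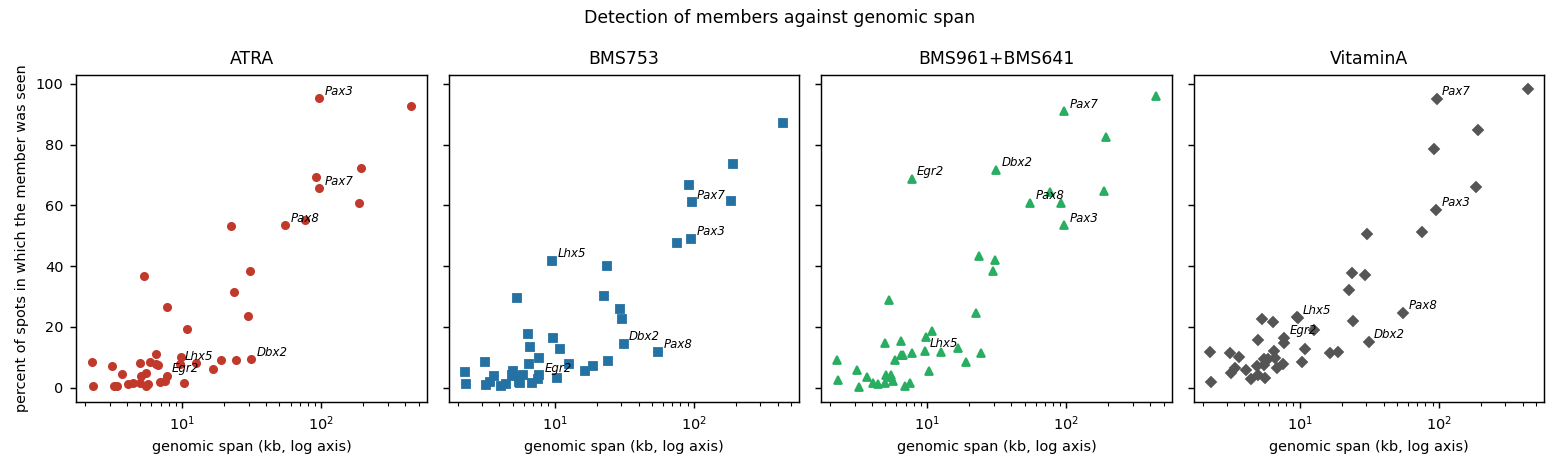
Share of spots at which a gene was seen (percent, vertical) against its genomic span (kb, log axis), 1 panel per section, for the members only. Tshz2, at 440.2 kb, lies at the top right of every panel, and Egr2 and Dbx2 lie at 68.8% and 71.8% in the BMS961+BMS641 panel.

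Among the factors of the anterior forebrain and eye field, Six3 was lower than in VitaminA in all 3 ligand sections, past 2-fold in ATRA and BMS961+BMS641. Otx2 was past 2-fold higher in ATRA, and its smaller ratios in BMS753 and BMS961+BMS641 lay within the spread of the quadrants. Six3, which sets up the foremost forebrain and the eye, had 3.14 ppm in the ATRA section, 5.85 ppm in BMS753, 3.37 ppm in BMS961+BMS641 and 11.6 ppm in VitaminA. Its quadrants spanned 2.22 to 4.17, 3.68 to 10.2, 2.84 to 4.36 and 10.4 to 15.3 ppm, so that no ligand quadrant reached the lowest VitaminA quadrant. Otx2, required for forebrain and midbrain, had 12, 7.98, 6.60 and 5.14 ppm and was seen in 19.2%, 12.6%, 18.6% and 12.7% of spots. The ATRA section was highest for Otx2, but its quadrants (8.93 to 14.5 ppm) overlapped those of VitaminA (2.43 to 9.19 ppm). The Otx2 quadrants of BMS753 (3.43 to 13.5 ppm) and BMS961+BMS641 (3.81 to 10.0 ppm) overlapped those of VitaminA too. Emx2, a factor of the dorsal telencephalon that becomes cortex, had 6.16, 18.2, 4.32 and 9.05 ppm, highest in the BMS753 section. Its quadrants overlapped between BMS753 (10.9 to 23.9 ppm) and VitaminA (4.66 to 13.8 ppm). Of the genes read in all sections, 37.8% had their highest level in BMS753. Lhx2, which acts in cortex and eye, had 43.5, 30.8, 32.1 and 59.5 ppm, with VitaminA highest and every ratio within 2-fold. Tshz1 and Tshz2, Teashirt zinc finger factors, had 76.5, 94.1, 73.0 and 67.5 ppm and 353, 407, 377 and 472 ppm, and also stayed within 2-fold. The remaining members of this group, Otx1, Emx1, Six6 and Rax, were seen in 0.548% to 12.9% of spots.

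In the group of diencephalic factors, Gbx1 was highest in the ATRA section. Gbx1 is grouped here by list only, since it is known from the hindbrain, spinal cord and basal forebrain, while its paralogue Gbx2 also acts in the thalamus. Gbx1 had 62.2 ppm there, 32.2 ppm in BMS753, 11.5 ppm in BMS961+BMS641 and 23.9 ppm in VitaminA, and its quadrants in the ATRA section (57.5 to 69.2 ppm) lay above every quadrant of the other sections. Its shares of spots were 53.3%, 30.1%, 24.7% and 32.1%. Tcf7l2, an effector of WNT signalling that is abundant in the thalamus, had 122, 169, 146 and 152 ppm and differed by less than 2-fold in all comparisons. Lhx9, a LIM-homeodomain factor of the diencephalon, had 28.4, 57.9, 29.5 and 31.2 ppm, with BMS753 highest by level. By share of spots BMS961+BMS641 (43.3%) was above BMS753 (40.1%) for Lhx9. In spots with 3000 to 5000 genes seen its levels there were 38.2 ppm and 39.8 ppm. Pou4f1 (Brn3a), expressed in the habenula and sensory neurons, had 8.78, 23.6, 9.31 and 22.8 ppm, lower in ATRA and in BMS961+BMS641 than in the other 2 sections. The Iroquois factor Irx2 was lower in the same 2 sections, with 11.1, 29.0, 9.22 and 21.4 ppm. The quadrants of Irx2 overlapped between ATRA (2.24 to 16.5 ppm) and VitaminA (15.2 to 29.5 ppm), and those of Pou4f1 between BMS961+BMS641 (4.11 to 15.0 ppm) and VitaminA (14.0 to 29.9 ppm). Barhl1, Barhl2, Irx1, Irx3 and Irx5 were seen in 0.506% to 11.4% of spots.

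Among the boundary and hindbrain factors, Egr2 stood apart in the BMS961+BMS641 section and Pax8 in 2 sections. Egr2 had 1.11 ppm in the ATRA section, 1.92 ppm in BMS753, 73.9 ppm in BMS961+BMS641 and 8.27 ppm in VitaminA. It was seen in 3.88% of spots (2.47% to 5.76%), 4.05% (2.46% to 6.25%), 68.8% (63.7% to 73.5%) and 16.5% (13.5% to 19.8%), and the 4 quadrants of the BMS961+BMS641 section held 59.1% to 76.2%. Outside the hindbrain EGR2 is also known as a factor of myelinating Schwann cells and of immune cells. Of the microglia markers Cx3cr1 had 109 ppm in the BMS961+BMS641 section, against 24.0 to 41.6 ppm in the other sections, while Aif1 and Csf1r were not highest there. The oligodendrocyte markers had their lowest sum in that section, 132 ppm. The part of such cells in the Egr2 level was not tested. Pax8, of the same subfamily as Pax2 and Pax5, had 63.4, 14.0, 57.2 and 17.4 ppm in the 4 sections, and was seen in 53.5% (49.3% to 57.5%), 11.7% (8.96% to 15.0%), 60.8% (55.6% to 65.9%) and 24.6% (21.1% to 28.5%) of spots. Every quadrant of the ATRA and BMS961+BMS641 sections was above every quadrant of BMS753 and VitaminA for Pax8. Pax2 had 119, 132, 55.3 and 126 ppm, lowest in the BMS961+BMS641 section, and Pax5 had 96.3, 153, 78.9 and 103 ppm. En2, an Engrailed factor of the midbrain-hindbrain border, had 8.28, 10.6, 7.17 and 13.5 ppm. Gbx2, which opposes Otx2 at that border, was at the edge of detection, seen in 0.506%, 0.853%, 0.274% and 4.89% of spots with 0.138, 0.373, 0.0471 and 2.29 ppm, and was not compared.

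Among the dorsal factors, Pax3 was highest in the ATRA section, and its paralogue Pax7 was past 2-fold lower in the ATRA and BMS753 sections than in VitaminA. Pax3 had 786.6 ppm in the ATRA section, 85.8 ppm in BMS753, 53.9 ppm in BMS961+BMS641 and 79.3 ppm in VitaminA, and was seen in 95.3% (93.2% to 96.8%), 49.0% (44.4% to 53.7%), 53.4% (48.2% to 58.6%) and 58.5% (54.3% to 62.7%) of spots. In the ATRA section only 6.37% of the spots with Pax3 held it at the first step above the lowest value, against 57.4%, 55.4% and 59.1% in the other sections, so both the number of spots and the signal per spot were higher. Pax7 had 101.1, 135.0, 231.0 and 311.7 ppm, and was seen in 65.6% (61.6% to 69.4%), 61.0% (56.4% to 65.4%), 91.0% (87.5% to 93.7%) and 95.1% (93.0% to 96.8%) of spots. The Pax7 quadrants of the ATRA section (89.0 to 110 ppm) and the BMS753 section (121 to 151 ppm) lay below all VitaminA quadrants (274 to 338 ppm). Zic1, a zinc finger factor of the dorsal neural tube and cerebellar granule cells, had 24.6, 14.2, 4.51 and 8.33 ppm, with the ATRA section highest. Msx1, a target of BMP signalling at the dorsal midline, was seen in 1.18%, 0.640%, 1.64% and 5.80% of spots with 0.665, 1.67, 0.483 and 5.95 ppm. Msx2 and Zic2 were seen in 1.35% to 9.42% of spots.

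The ventral factors were highest in the VitaminA section except Nkx2-1. This factor, which marks the ventral forebrain and hypothalamus, had 4.35 ppm in the ATRA section, 4.30 ppm in BMS753, 11.1 ppm in BMS961+BMS641 and 10.0 ppm in VitaminA, in 8.09%, 5.54%, 14.8% and 15.8% of spots. Its quadrants overlapped between BMS961+BMS641 (3.46 to 20.7 ppm) and VitaminA (5.68 to 12.9 ppm). In spots with 3000 to 5000 genes seen it had 5.28 ppm in BMS961+BMS641 and 10.4 ppm in VitaminA, so the exception did not hold there. Nkx2-2, induced by Sonic hedgehog next to the floor plate, had 4.33, 3.23, 2.20 and 5.79 ppm, in 8.94%, 7.25%, 8.49% and 11.8% of spots. Between 2 and 5 ventral members were compared in each comparison, too few to set against the share of all genes. Nkx6-1, Nkx6-2 and Lhx8 were seen in 0.506% to 21.9% of spots where listed.

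Of the factors of the intermediate neural tube, Dbx2 was highest in the BMS961+BMS641 section and Lhx5 in the BMS753 section. Dbx2, a homeodomain factor of interneuron progenitors, had 10.4, 31.0, 132.7 and 16.2 ppm in the 4 sections, and was seen in 9.27% (7.06% to 11.9%), 14.5% (11.4% to 18.02%), 71.8% (66.9% to 76.3%) and 15.0% (12.2% to 18.3%) of spots. Its relative Dbx1 had 34.2, 35.2, 16.6 and 17.7 ppm, close to equal in the BMS961+BMS641 and VitaminA sections. Lhx5, a LIM-homeodomain factor of forebrain and spinal interneurons, had 8.18, 99.8, 7.44 and 23.7 ppm, and was seen in 7.76% (5.73% to 10.2%), 41.8% (37.3% to 46.4%), 12.1% (8.90% to 15.8%) and 23.2% (19.7% to 26.9%) of spots. The lowest BMS753 quadrant for Lhx5 (73.9 ppm) was above the highest quadrant of VitaminA (27.9 ppm). Pax6, a factor of cortical progenitors and the eye, had 9.58, 20.9, 13.3 and 20.8 ppm, in 23.4%, 26.0%, 38.4% and 37.0% of spots. Gsx1, Gsx2 and Lhx1 were seen in 0.675% to 11.8% of spots.

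**Figure D3:**
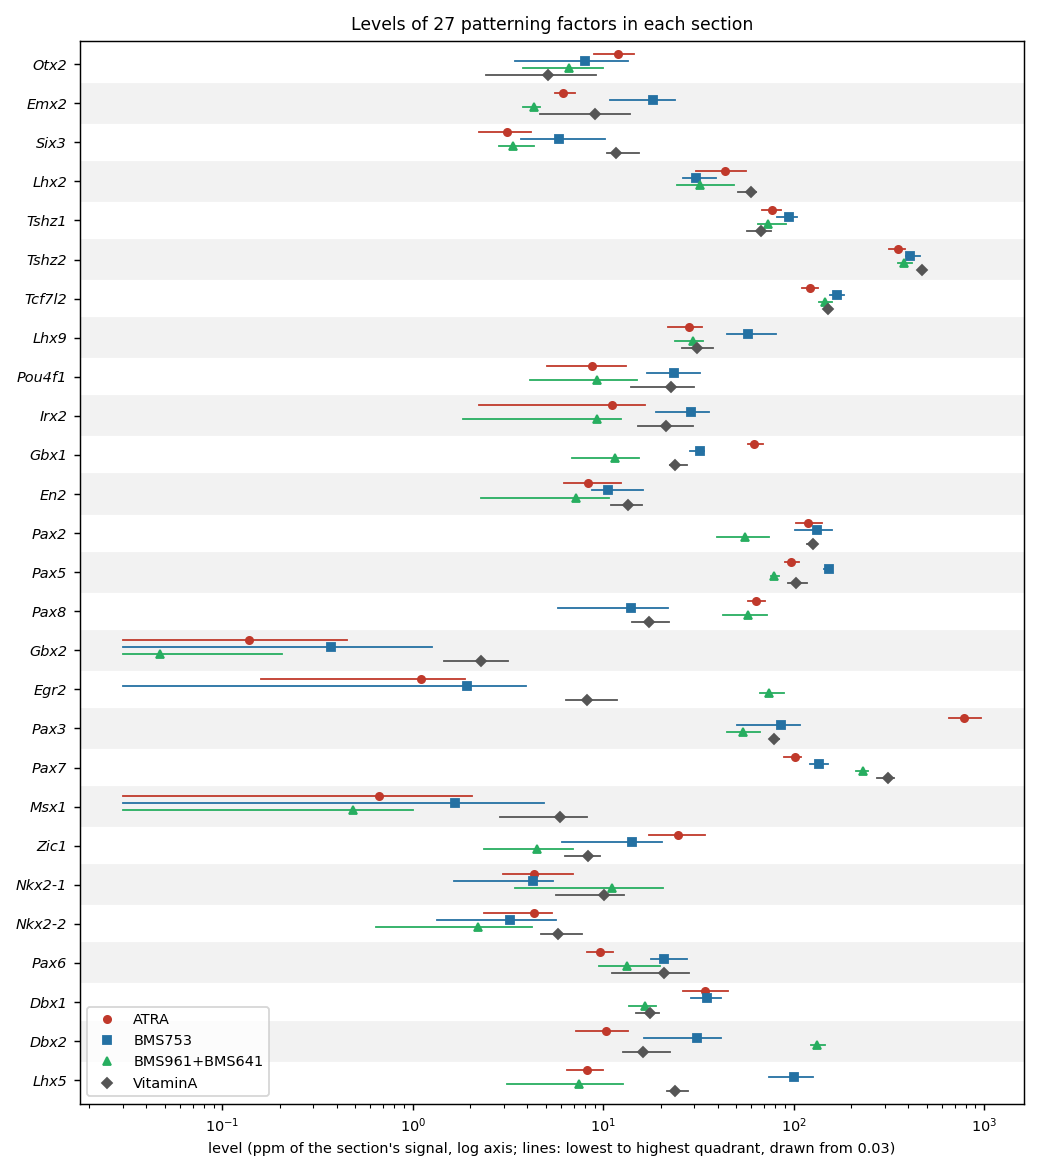
Levels of the named members in the 4 sections (ppm of section signal, log axis), ATRA first and VitaminA last in the legend; points are whole sections and lines run from the lowest to the highest of 4 quadrants, drawn from 0.03 ppm. Pax3 in the ATRA section (786.6 ppm), Egr2 and Dbx2 in the BMS961+BMS641 section (73.9 and 132.7 ppm) and Lhx5 in the BMS753 section (99.8 ppm) lie apart from the other sections of the same gene.

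The ATRA section was set against the VitaminA section for 36 members, of which 5 were past 2-fold higher and 14 past 2-fold lower. Over all 13841 genes compared, 9.58% were higher and 31.9% lower, and the members' shares were 13.9% and 38.9%. Pax3 (log2 ratio 3.29, quadrant pairs 2.95 to 3.68), Pax8 (1.81, 1.33 to 2.24), Zic1 (1.46, 0.79 to 2.28), Gbx1 (1.34, 1.04 to 1.59) and Otx2 (1.08, -0.04 to 2.18) were higher. Among those lower were Egr2 (-2.13, -3.46 to -1.37), Msx1 (-2.06), Pax7 (-1.61, -1.91 to -1.31), Six3 (-1.61, -2.34 to -1.14), Lhx5 (-1.43), Pou4f1 (-1.28), Nkx2-1 (-1.05) and Pax6 (-1.04). Of the 14, 9 were under 5 ppm in the ATRA section and so were compared through VitaminA alone, and with a minimum of 20 ppm 4 of 17 members were higher and 4 lower. Among members under 20 ppm in both sections, the lowest ratios, named after their values were seen, were those of Nkx6-2 (-2.70) and Lhx1 (-2.32). With deposited values Msx1 had -0.47. The median member had -0.57 and the median gene -0.60, so relative to all genes the members' median was 0.03. With ratios centred on the median gene, 6 members were higher and 8 lower. Centred, Lhx5 had -0.83, Pou4f1 -0.69, Nkx2-1 -0.45 and Pax6 -0.45, within 2-fold, while Egr2, Msx1, Pax7 and Six3 stayed past it. Here and below, shares over all genes are given only for ratios without centring at the 5 ppm minimum. Counts at 20 ppm or after centring are therefore not set against all genes. As a ratio of shares of spots, Pax3 had 0.69, Zic1 0.81, Gbx1 0.72, Otx2 0.56 and Pax7 -0.53, all within 2-fold. Pou4f1 (-0.91), Nkx2-1 (-0.88) and Pax6 (-0.64) were within 2-fold by that ratio too, while Pax8, Egr2, Msx1, Six3 and Lhx5 stayed past it. Since Pax3 was already seen in 58.5% of VitaminA spots, its share could not rise 2-fold, so this ratio does not bear on its level.

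Between the BMS753 and VitaminA sections, Lhx5 was higher and 6 members were lower. Of 36 members compared, 1 was past 2-fold higher and those 6 lower, 2.78% and 16.7%, beside 13.9% and 12.6% of 14673 genes. The log2 ratio of Lhx5 was 2.03 (quadrant pairs 1.38 to 2.49, and 0.82 as a ratio of shares of spots). Egr2 (-1.67, -3.66 to -0.58), Msx1 (-1.38, -3.21 to 0.61), Pax7 (-1.20, -1.47 to -0.85) and Nkx2-1 (-1.06, -2.39 to -0.04) were among the lower ones, and Pax7 had -0.63 as a ratio of shares of spots. Of the 6 lower, 5 were under 5 ppm in the BMS753 section, and with a minimum of 20 ppm 1 of 16 members was higher and 1 lower. The members' median was -0.07, or -0.22 relative to the median gene at 0.14, and after centring 1 member was higher and 10 lower. Msx1 rested on few spots, and with the deposited lowest value kept its ratio was 0.35.

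In the BMS961+BMS641 section, at a ligand dose of 0.1 µM, 3 of 35 members were past 2-fold higher than in VitaminA and 14 lower, 8.57% and 40.0%, beside 10.9% and 29% of 13925 genes. Egr2 (3.02, quadrant pairs 2.41 to 3.61), Dbx2 (2.96, 2.39 to 3.42) and Pax8 (1.66, 0.92 to 2.27) were higher. Msx1 (-2.23), Lhx5 (-1.55), Six3 (-1.53, -2.09 to -1.09), Pou4f1 (-1.21), Pax2 (-1.17, -1.72 to -0.65), Irx2 (-1.13) and Nkx2-2 (-1.08) were among those lower. As ratios of shares of spots Six3 had -0.63, Lhx5 -0.89, Pou4f1 -0.48, Pax2 -0.36, Irx2 -0.43 and Nkx2-2 -0.43, all within 2-fold, and the last 4 were within 2-fold after centring too. With deposited values Msx1 had -0.36. Irx5, under 20 ppm in both sections and named after its value was seen, had -2.59. Of the 14 lower, 10 were under 5 ppm in the BMS961+BMS641 section, and with a minimum of 20 ppm 3 of 17 members were higher and 4 lower. The median member had -0.82, or -0.31 relative to the median gene at -0.52, and centring left 3 higher and 8 lower. Egr2 and Dbx2 were 2 of 421 genes (2.13% of the genes listed in all sections) that were seen in at least 50% of spots of the BMS961+BMS641 section and in more than 2 times the share of any other section. The epithelium markers Epcam and Cdh1, but not Krt8, were also highest in that section, where the 4 on the list summed to 1533 ppm, and their part in the Egr2 and Dbx2 levels was not tested.

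The 3 ligand sections were all set against the same VitaminA section, so their ratios are not independent of each other. The ligands ATRA and BMS753 were at the same dose and could be set side by side directly. Of 29 members compared between BMS753 and ATRA, 8 were past 2-fold higher in BMS753 and 2 lower, 27.6% and 6.90%, beside 36.2% and 8.57% of 13791 genes. Lhx5 (3.46, quadrant pairs 2.78 to 4.09), Dbx2 (1.49), Emx2 (1.43), Pou4f1 (1.33), Irx2 (1.31), Pax6 (1.05) and Lhx9 (1.00) were among the higher, and Pax3 (-3.18, -4.24 to -2.59) and Pax8 (-2.10, -3.40 to -1.35) were the lower. All 7 named higher members, except Lhx5, were within 2-fold after centring on the median gene, whose ratio was 0.72. Centring gave 2 higher and 7 lower. The BMS961+BMS641 ligands were used at another dose, and no ratio was taken between them and the other ligands. Where levels or shares of that section are set beside those of ATRA and BMS753, the dose differs too.

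**Figure D4:**
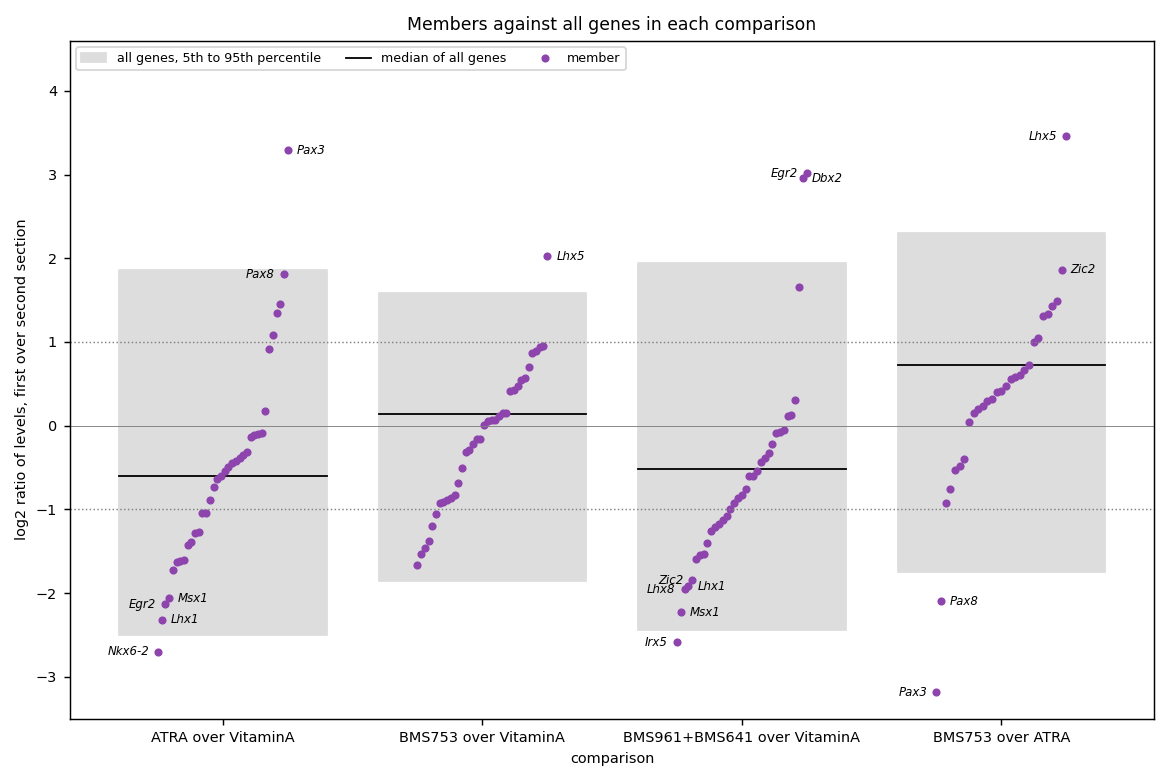
Log2 ratio of each member (purple points) in the 4 comparisons, over the range from the 5th to the 95th percentile of all genes (grey) with their median (black line); dotted lines mark 2-fold. Pax3, at 3.29 in ATRA over VitaminA, Lhx5, at 2.03 in BMS753 over VitaminA, and Egr2 and Dbx2, at 3.02 and 2.96 in BMS961+BMS641 over VitaminA, lie above the grey band.

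Richness of spots differed between sections, so members were also read in the spots with 3000 to 5000 genes seen, a band chosen after seeing the data (270, 174, 140 and 284 spots). Pax3 was then seen in 100% of ATRA spots and 50% of VitaminA spots. Pax8 was seen in 61.1% of ATRA and 55% of BMS961+BMS641 spots, against 19.4% of VitaminA spots. Egr2 was seen in 63.6% and Dbx2 in 72.9% of BMS961+BMS641 spots, against 15.5% and 11.97% of VitaminA spots. Lhx5 was seen in 42.5% of BMS753 spots and 17.96% of VitaminA spots, and Pax7 in 71.9% of ATRA and 69.0% of BMS753 spots, against 94.7% of VitaminA spots.

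Within the sections the median member showed little patchiness. Moran's I, which is near 0 for values scattered without regard to neighbours and near 1 for smooth patches, had a median over the members seen in at least 5% of spots of 0.022 in the ATRA section, 0.021 in BMS753, 0.014 in BMS961+BMS641 and 0.012 in VitaminA, beside 0.018, 0.025, 0.015 and 0.010 over all genes at that share. With the spot factor divided out, its highest values among members were 0.12 for Tshz2 in ATRA, 0.146 for Pax7 in BMS753, 0.089 for Pax8 in BMS961+BMS641 and 0.052 for Irx1 in VitaminA. With the spot factor kept, the highest were 0.274 for Pax3 in ATRA, 0.11 for Pax7 in BMS753, 0.166 for Pax7 in BMS961+BMS641 and 0.173 for Tshz2 in VitaminA. With 4 grid neighbours in place of 8 they were 0.073 for Tshz2, 0.136 for Pax7, 0.0901 for Dbx1 and 0.0867 for Pax6. The number of genes seen per spot was itself more patchy, with 0.469, 0.557, 0.336 and 0.431. Pax3 had 0.108 in the ATRA section, where every quadrant held it in at least 89.2% of spots, and Egr2 had -0.032 in the BMS961+BMS641 section.

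**Figure D5:**
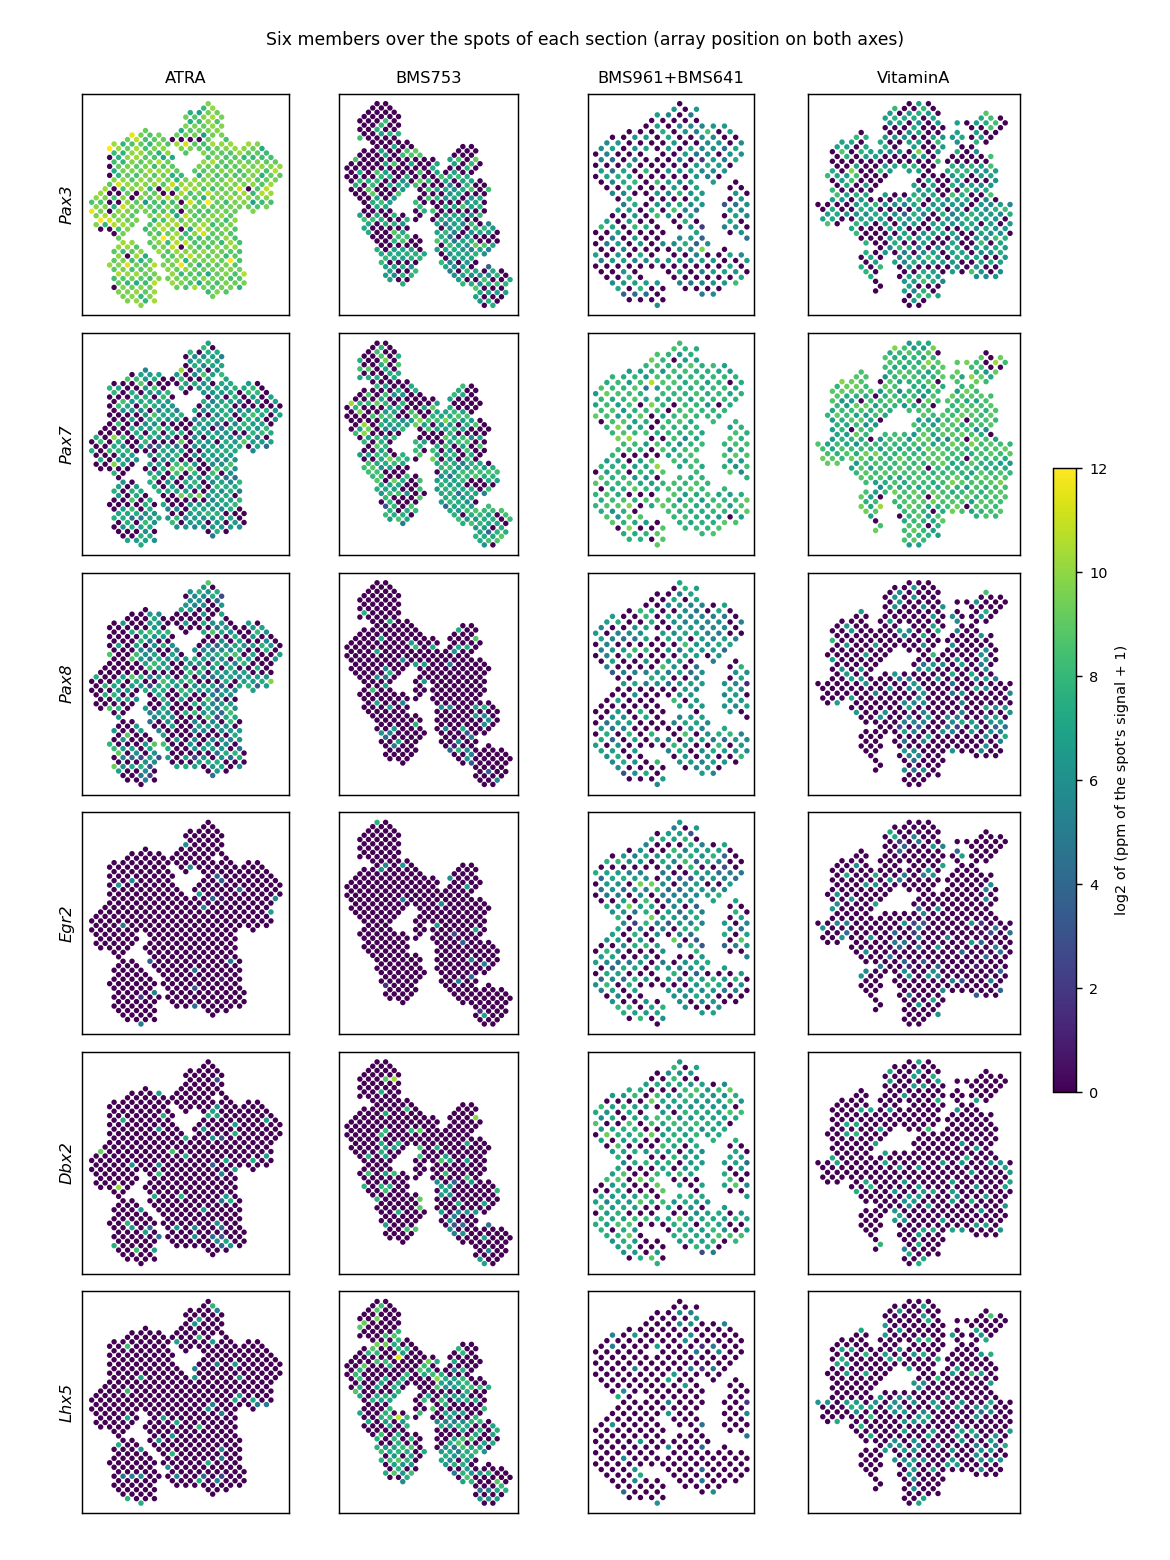
Spots of each section at their array positions (grid units), coloured by the log2 of a member's ppm of the spot's signal plus 1, with 1 member per row and the sections as columns, ATRA leftmost and VitaminA rightmost. Pax3 fills 95.3% of spots of the ATRA section, and Egr2 and Dbx2 are spread over the BMS961+BMS641 section at 68.8% and 71.8% of spots.

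No pair of members was closely tied over the spots. Across 406, 378, 465 and 741 pairs in the ATRA, BMS753, BMS961+BMS641 and VitaminA sections, the Spearman correlations over spots, which share library and depth, had medians of 0.056, 0.065, 0.068 and 0.024. The highest were 0.21 for Emx2 with Nkx2-1, 0.22 for Pax2 with Pax3, 0.23 for Zic1 with Dbx1 and 0.20 for Lhx9 with Lhx5, and no pair was above 0.3.

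Other patterning genes, 50 signals and factors outside the 44, gave a background from the same pathways. Compared with VitaminA, 2 of 30 were past 2-fold higher and 14 lower in ATRA, 3 and 9 of 32 in BMS753, and 1 and 16 of 31 in BMS961+BMS641. Over all genes compared, 9.58% were higher and 31.9% lower in ATRA, 13.9% and 12.6% in BMS753, and 10.9% and 29% in BMS961+BMS641. The medians of the listed genes relative to all genes were -0.07, -0.43 and -0.49. The list was to be described by counts, and the genes named next were picked after their values were seen. Shh, the ventral signal, had 71.7 ppm in the ATRA section, 10.4 ppm in BMS753, 4.95 ppm in BMS961+BMS641 and 12.4 ppm in VitaminA, and Gli1, a target of that signal, had 19.3, 19.4, 11.2 and 177.9 ppm. En1, the second Engrailed factor, had 3.86, 21.4, 4.88 and 91.9 ppm, whereas En2 stayed within 2-fold. Lmx1a, a factor of the dorsal roof plate and of midbrain dopaminergic neurons, had 90.2, 128.3, 500.5 and 103.4 ppm. Nr2f2 (COUP-TFII) had 7.56, 48.5, 16.1 and 11.3 ppm, with the BMS753 section highest. Between BMS753 and ATRA, 6 of 25 genes of the list were higher and 2 lower, beside 36.2% and 8.57% of all genes. Their median was -0.56 relative to all genes.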

How the data were processed

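Spatial transcriptomes of 4 organoid sections, 1 per treatment, were used. The authors deposited, for each section, a table of signal per gene and spot, quantile normalised within the section: within a section the ranked values were identical from spot to spot apart from 1 multiplier per spot. Per the submitters' processing notes, mm9 was the genome build. Aligner, read counting and spot selection: not given in the sources used here. All sample columns were used (0 per-sample columns were left out).

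In all but 1 spot of each section, every zero came before every lowest positive value in row order, so both were read as 1 tie and set to 0; the deposited values were an alternative. Levels, ratios, exact intervals and Moran's I (8 grid neighbours) were computed with Python 3.11.15, numpy 2.4.6, pandas 2.3.3 and scipy 1.17.1, plotted with matplotlib 3.10.9 and tested on simulated data. Moran's I used values with the spot factor divided out. Values in every section are given for members at 20 ppm or more and seen in 5% of spots or more in any section, for those past 2-fold with 20 ppm in either section, and for 13 fixed members (Otx2, Emx2, Six3, Pax6, En2, Gbx2, Egr2, Nkx2-1, Nkx2-2, Pax3, Pax7, Msx1 and Zic1), 27 in all. The other 17 are given by range. Spans and promoters came from RefSeq (GRCm38.p6), not the authors' build. The members and lists were chosen with earlier results of these data known.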

Additional observations from a re-analysis of the deposited data

How the results depend on the processing

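No paired analysis was possible because each treatment has 1 section and there is no replicate to leave out. For the 37 ratios past 2-fold of members given in every section, 11 other settings gave 395 values, of which 394 kept their direction and 314 stayed past 2-fold. The ratios of Pax8 in ATRA and in BMS961+BMS641 over VitaminA and in BMS753 over ATRA, Egr2 in ATRA and in BMS961+BMS641 over VitaminA, Dbx2 in BMS961+BMS641 over VitaminA, Six3 in ATRA over VitaminA and Lhx5 in BMS753 over ATRA were past 2-fold in all settings run. Among them, Egr2 and Six3 in ATRA over VitaminA were run in 10 settings, since the filter at 20 ppm left both out. They had 1.11 and 3.14 ppm in the ATRA section and were compared through VitaminA alone, so they carry less weight. Msx1 in BMS753 over VitaminA turned to 0.35 with the deposited lowest value kept, against -1.38. For ATRA over VitaminA, the 5 members higher became 1 as a ratio of shares of spots, and the 14 lower became 9 with deposited values, 8 with a pseudocount of 5 ppm, 4 with a filter at 20 ppm and 8 after centring. Pax3, seen in 58.5% of VitaminA spots, could not pass 2-fold higher as a ratio of shares. For BMS753 over VitaminA, the 1 higher became 2 with deposited values, with every spot scaled to the same sum, in interior spots, with tie steps and in spots with 3000 to 5000 genes seen (tie steps and that band of spots were chosen after seeing the data), and 0 as shares of spots. Its 6 lower became 1 with a pseudocount of 5 ppm, 1 with a filter at 20 ppm, 10 after centring and 16 as shares of spots. For BMS961+BMS641 over VitaminA, the 14 lower became 9 with deposited values, 5 with a pseudocount of 5 ppm, 4 with a filter at 20 ppm, 8 after centring and 6 as shares of spots. For BMS753 over ATRA, the 8 higher became 5 with a pseudocount of 5 ppm, 2 after centring and 1 as shares of spots, and the 2 lower became 7 after centring. The filter tests fewer genes, and the other causes were not tested. No share over all genes stands beside the counts in these other settings. Depth is unknown, so members near the lowest value, such as Gbx2 and Msx1, carry little weight.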
